A study of Homo sapiens with 12 samples.

Results

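The genes examined here are 40 genes of glycolysis, glucose transport and the response to low oxygen, read in SCC-15 cells with and without knockdown of FMOD. They were chosen by name, with earlier results of these data known. By role they are 4 glucose transporters, 10 enzymes of upper glycolysis, 6 enzymes of lower glycolysis, 6 genes of lactate and pyruvate handling, 4 genes of the hypoxia-inducible factors (HIF) and their prolyl hydroxylases, and 10 HIF targets outside glycolysis. All 40 were found among the 61044 IDs of the table, of which 33435 had a count in any library, and all 40 passed the filter on low counts that left 17532 genes for testing. SLC2A3 passed it through its shRNA libraries alone and CA12 through its NC libraries alone, so both had to differ between groups to be tested at all. SLC2A14, with 36 counts summed over the NC libraries, did not pass it by NC alone and needed its shRNA libraries too.

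SCC-15 is an established human line of oral squamous cell carcinoma. RNA was sequenced from cells with a negative-control short hairpin RNA (NC) and from cells with 1 of 3 short hairpin RNAs against FMOD, the gene of the matrix proteoglycan fibromodulin, named shRNA1, shRNA2 and shRNA3. Cells were harvested at 48 h, each of the 4 groups has 3 libraries, and all groups share the line and were grown in DMEM with serum. No label names low oxygen or a change of glucose, the way the hairpins were delivered, or separate cultures behind the libraries, so p-values measure the spread between libraries, which may be technical.

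Glucose enters cells through facilitative carriers of the SLC2A family and is held inside by hexokinases, after which the enzymes of upper glycolysis split it into triose phosphates and those of lower glycolysis turn these into pyruvate. Lactate dehydrogenases interconvert pyruvate and lactate, monocarboxylate carriers of the SLC16A family move lactate across the plasma membrane, and pyruvate dehydrogenase kinases hold back the enzyme complex that turns pyruvate into acetyl-CoA in mitochondria. Under low oxygen the prolyl hydroxylases encoded by the EGLN genes slow down, HIF-alpha proteins (HIF1A, EPAS1) are spared from degradation, and HIF raises many of these genes. HIF-alpha is controlled largely as a protein, which mRNA levels do not show.

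Library totals lay between 17287017 and 19567289 estimated counts. FMOD itself was at the limit of detection, with 2, 2 and 3 counts in the NC libraries and 0 in all 9 shRNA libraries, so the knockdown can hardly be read from these data (a count of 0 allows up to 3 counts, or 0.145 to 0.222 CPM by library). NC libraries stood apart from all others: Pearson correlations across genes were 0.829 to 0.855 between NC and shRNA libraries and 0.904 or more between libraries of different shRNAs. Within shRNA3, libraries 1 and 2 stood apart from library 3. All comparisons with NC share the same 3 NC libraries, and the effect of the hairpins cannot be told apart from anything else that set those libraries apart. All 10 squamous markers were read, and their summed level was 2628 to 2812 CPM in NC and 2289 to 3257 with the shRNAs. Single markers differed widely and in opposite directions, which the sum hides. KRT5 (965 to 1049 CPM in NC and 16.5 to 90.3 with the shRNAs), CDH1 (310 to 336 and 35.4 to 79.4), PKP1 and TP63 were lower in all shRNA libraries. KRT14 (6.51 to 9.59 and 24.2 to 230), DSP (265 to 325 and 571 to 1041), KRT6A and KRT17 were higher in all of them. SFN and EPCAM were neither. Of other cell types, 4 of 7 fibroblast markers were tested (summed 56.9 to 59.7 CPM in NC, 15.5 to 86.6 with the shRNAs), 3 of 5 endothelial markers (17.8 to 23.4 and 3.88 to 13.4) and 2 of 6 leukocyte markers (58.8 to 76.4 and 44.5 to 237, nearly all of it CD68). Single markers of these lists differed between NC and the shRNA libraries: PDGFRB was at 9.36 to 11.7 CPM in NC and 0.445 to 1.29 with the shRNAs, COL1A2 at 4.52 to 5.32 and 0 to 0.206, CDH5 at 15.4 to 20.5 and 0.519 to 2.76, and PECAM1 at 0.101 to 0.197 and 2.09 to 9.68, while COL1A1 reached 85.4 CPM. DCN, PDGFRA, KDR, PTPRC and CD3E were at or near 0, with at most 0.436 CPM in any library. The part of these markers in the results was not tested.

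Each shRNA group was compared with NC, with levels as counts scaled to the library total and the TMM factor (CPM), by edgeR's quasi-likelihood test with Benjamini-Hochberg adjustment over all tested genes and a threshold of 0.05. The 40 genes were chosen with earlier results of these data known, so their shares beside the background are a description only. With all 3 shRNAs, 12 of 40 genes (30.0%) were called higher, where the background over all tested genes was 16.0%. They were 2 of the 4 glucose transporters (SLC2A1, SLC2A3), 3 of the 10 genes of upper glycolysis (HK2, GPI, TPI1), 3 of the 6 of lower glycolysis (PGK1, PGAM1, PKM), 3 of the 6 of lactate and pyruvate handling (LDHB, SLC16A1, SLC16A3) and 1 of the 10 HIF targets outside glycolysis (ANKRD37). Called lower with all 3 were PDK3, CA12, BNIP3L and P4HA2, 4 of 40 genes (10.0%, background 19.7%). SLC2A3 and CA12 are counted here although they had to differ between groups to be tested at all. Many of the 40 genes are known HIF targets, and the part of HIF in these changes was not tested. HIF1A mRNA was not called higher with any hairpin and was called lower with shRNA2 and with the mean of the 3 hairpins. The HIF targets outside glycolysis were split between higher and lower.

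Per hairpin, 25 genes were called with shRNA1 (62.5%, background 57.4%), 17 higher and 8 lower. With shRNA2, 28 were called (70.0%, background 53.0%), 17 higher and 11 lower, and with shRNA3, 25 (62.5%, background 53.9%), 19 higher and 6 lower. These shares were not tested against each other, and as the genes were chosen with earlier results known, they describe this list only. Called higher were 42.5%, 42.5% and 47.5% of the 40 genes with shRNA1, shRNA2 and shRNA3, against 26.8%, 24.6% and 26.4% of all tested genes, and called lower were 20%, 27.5% and 15%, against 30.6%, 28.4% and 27.6%, a share with shRNA2 close to that of all genes. The median log2 fold change of the 40 genes was 0.37, 0.42 and 0.45, and that of all tested genes -0.02, -0.05 and -0.03. With shRNA1 the split was 15 higher and 11 lower under upper-quartile scaling and under library totals alone, and with shRNA3 it was 16 higher and 12 lower when library 3 stood alone for its group, where the lone library is assumed to vary like the other groups. With the mean of the 3 hairpins, 28 were called (70.0%, background 60.0%), 19 higher (47.5%, background 27.9%) and 9 lower (22.5%, background 32.2%), and the split was 17 and 13 under library totals alone. A log2 change of at least 1 with each hairpin was reached upward by 7 of the called genes (17.5%, background 9.84%), SLC2A3, HK2, TPI1, PGK1, LDHB, SLC16A3 and ANKRD37, and downward by CA12 (2.5%, background 15.5%). Both SLC2A3 and CA12, the only gene counted downward, had to differ between groups to be tested, and the background holds such genes too. Of the 40 genes, 16 were called in 1 direction with all hairpins (40%, background 35.7%). In every shRNA library, 14 genes lay above all NC libraries (35.0%, background 19.0%): the 12 above, LDHA and NDRG1. The 4 genes called lower with all hairpins lay below all NC libraries in every shRNA library (10.0%, background 25.8%).

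**Figure D1:**
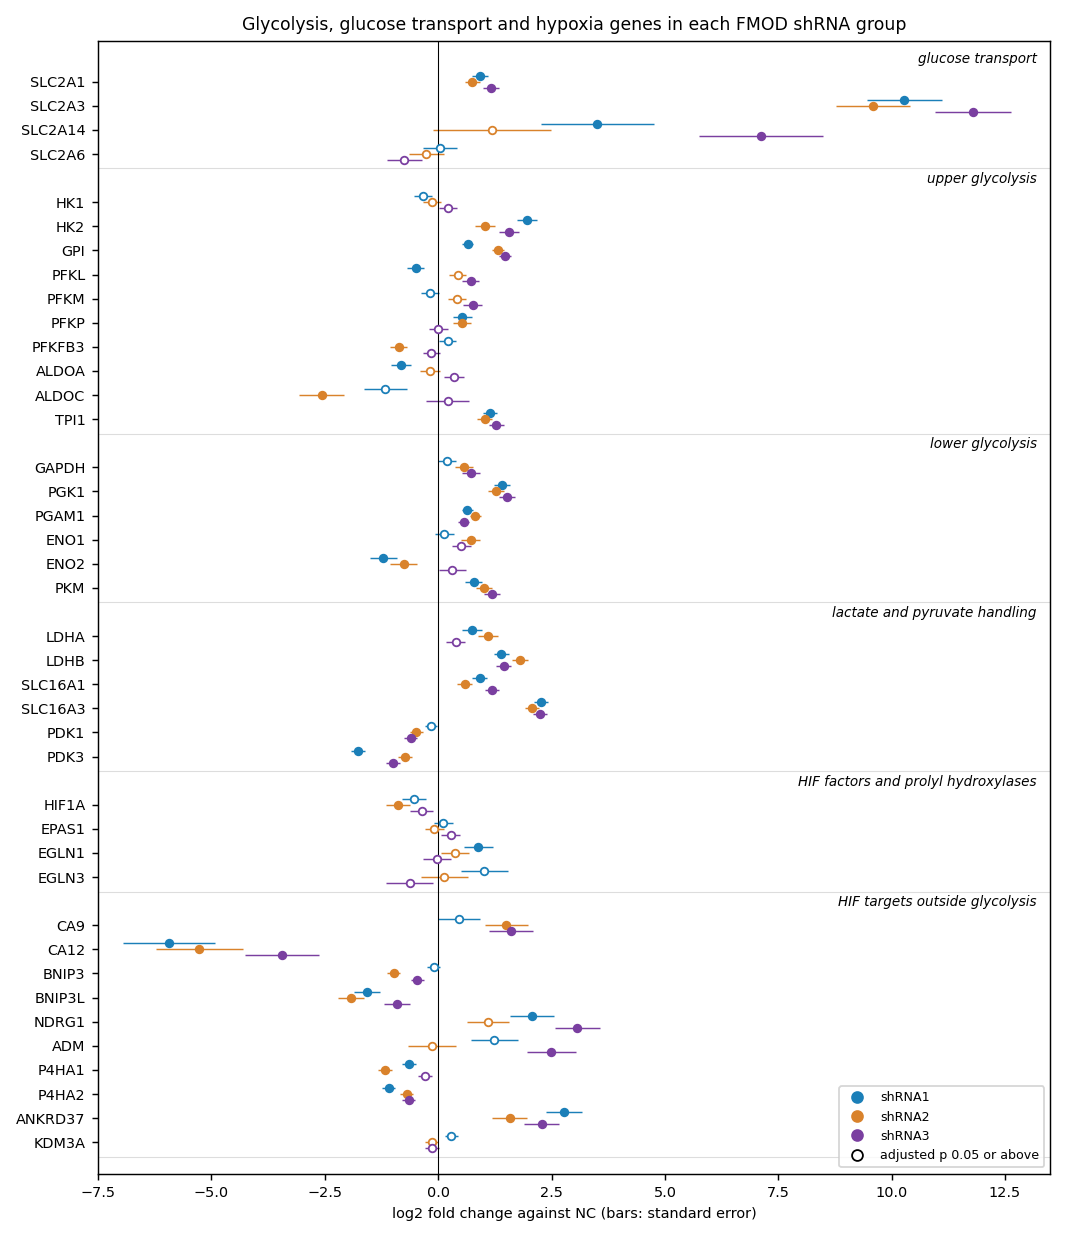
Log2 fold change against NC (horizontal axis) of the 40 genes (rows, grouped by role) with shRNA1, shRNA2 and shRNA3 (n = 3 libraries a group). Points are edgeR estimates, bars their standard errors, and open points have an adjusted p of 0.05 or above; SLC16A3 sits near 2.26, 2.06 and 2.25, SLC2A3 far to the right and CA12 far to the left.

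To show the sequence next to the measurements, the 250 bases before each start were searched for ACGTG and GCGTG on both strands, the core to which HIF binds, counting overlapping matches as 1 position (CACGTG reads ACGTG on both strands, and on the other strand the letters read CACGT and CACGC). Promoters of 36 of the 40 genes were in the RefSeq table for GRCh38.p14, and SLC2A3, SLC16A1, NDRG1 and BNIP3L were not matched. At least 1 position was found for 30 of the 36 genes (83.3%), against 47.4% of the 27305 genes in the table, and ACGTG alone for 58.3% against 21.7%. Counted by start, 60.9% of the 64 starts of these genes held a match, against 43.2% of all starts. Many of the 40 genes were listed because they are known HIF targets, so this share is a description, as is every match. Shown are the stretches free of annotated exons before a start of 3 genes that rose with every hairpin (HK2 at chr2:74834920-74835169, PGK1 at chrX:78103998-78104173 and SLC16A3 at chr17:82228792-82229031), of HK1 (chr10:69269750-69269983), the hexokinase that was not called, and of BNIP3 (chr10:131982014-131982173, minus strand) and PDK3 (chrX:24465036-24465220), which were lower where called. All but BNIP3 lie on the plus strand, each is written 5′ to 3′ as the gene reads, and capitals mark the motif letters.
HK2: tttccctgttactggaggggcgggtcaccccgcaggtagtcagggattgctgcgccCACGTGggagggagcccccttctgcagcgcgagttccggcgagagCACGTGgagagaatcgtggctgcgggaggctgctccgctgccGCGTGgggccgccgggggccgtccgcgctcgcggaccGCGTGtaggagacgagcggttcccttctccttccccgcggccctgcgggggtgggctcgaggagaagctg
PGK1: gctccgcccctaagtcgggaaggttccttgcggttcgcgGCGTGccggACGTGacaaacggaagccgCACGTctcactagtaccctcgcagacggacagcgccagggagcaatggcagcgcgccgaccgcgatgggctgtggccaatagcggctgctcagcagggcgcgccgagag
SLC16A3: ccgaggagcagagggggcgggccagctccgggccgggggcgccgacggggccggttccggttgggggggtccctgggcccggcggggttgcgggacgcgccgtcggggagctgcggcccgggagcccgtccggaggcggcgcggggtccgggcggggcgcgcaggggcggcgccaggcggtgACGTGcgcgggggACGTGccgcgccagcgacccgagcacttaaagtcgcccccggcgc
HK1: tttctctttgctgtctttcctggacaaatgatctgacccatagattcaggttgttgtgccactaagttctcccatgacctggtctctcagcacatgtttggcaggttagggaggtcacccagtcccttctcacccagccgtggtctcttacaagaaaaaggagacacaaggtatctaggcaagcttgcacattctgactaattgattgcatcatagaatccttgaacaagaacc
BNIP3: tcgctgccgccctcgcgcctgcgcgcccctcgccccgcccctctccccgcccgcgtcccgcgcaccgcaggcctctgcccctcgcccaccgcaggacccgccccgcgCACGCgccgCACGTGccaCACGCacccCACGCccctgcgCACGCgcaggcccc
PDK3: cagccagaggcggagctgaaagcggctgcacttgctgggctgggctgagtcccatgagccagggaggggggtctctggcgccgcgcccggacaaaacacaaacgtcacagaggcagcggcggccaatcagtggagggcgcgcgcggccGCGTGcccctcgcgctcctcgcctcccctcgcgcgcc
The stretch of HK2 holds 4 positions, that of PGK1 3, that of SLC16A3 2 and that of BNIP3 5, the highest number among the 36 genes. No position lies in the stretch shown for HK1, and the 7 starts listed for HK1 hold 0 or 1. The start of HK1 with a match (chr10:69319064, GCGTG at -149) is not the start shown. The 5 starts listed for SLC16A3 hold 0 to 3 positions, so for HK1 and SLC16A3 the number depends on the start shown. HK2 has 2 listed starts, and the other (chr2:74834127) holds 3 positions in its 250 bases but gave no stretch free of exons. PDK3 has 1 in the stretch shown and 2 in the full 250 bases. SLC2A1, LDHB, PGAM1 and PKM, 4 of the genes that rose with every hairpin, held none before their listed starts, nor did P4HA2 and EGLN3.

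Among the glucose transporters, SLC2A1 and SLC2A3 rose with every hairpin. SLC2A1 (GLUT1, the widespread basal carrier; ENSG00000117394, chromosome 1, 42925375 to 42959176, minus strand; positions here and below are GRCh38, GENCODE release 29) was read at 197, 217 and 219.6 CPM in NC, 433, 410.2 and 359.8 with shRNA1, 353, 349 and 364 with shRNA2 and 545, 526 and 348 with shRNA3. All 9 shRNA libraries lay above the 3 NC libraries, and shRNA3 libraries 1 and 2 were the highest. Its log2 fold changes, each with its standard error (SE), were 0.92 (SE 0.17), 0.75 (SE 0.17) and 1.16 (SE 0.17) with shRNA1, shRNA2 and shRNA3 (edgeR, adjusted p = 0.000713, 0.00293 and 0.000166), or 1.90-, 1.68- and 2.24-fold higher.

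SLC2A3 (GLUT3, a high-affinity carrier; ENSG00000059804, chromosome 12, 7919230 to 7936275, minus strand) went from near 0 to the level of an abundant mRNA. It was read at 0.202, 0 and 0.152 CPM in NC, 153, 163 and 145 with shRNA1, 74.6, 103 and 106 with shRNA2 and 627, 580.4 and 113 with shRNA3. The NC libraries held 4, 0 and 3 counts. By summed counts SLC2A3 was 1316-fold (95% interval 638 to 3273), 812-fold (95% interval 394 to 2022) and 3375-fold (95% interval 1638 to 8396) higher, where the exact intervals cover counting error only. The fitted log2 changes were 10.28, 9.58 and 11.79 (edgeR, adjusted p = 2.17e-06, 3.35e-06 and 1.12e-06). Within shRNA3, library 3 was at the level of the shRNA1 and shRNA2 libraries, and libraries 1 and 2 were several-fold higher.

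SLC2A14, a close duplicate of SLC2A3 on the same chromosome (ENSG00000173262, chromosome 12, 7812512 to 7891148, minus strand), shares sequence with it, so reads could be split between both and its own values are uncertain. It was read at 0.404, 0.739 and 0.660 CPM in NC, 9.80, 6.20 and 4.75 with shRNA1, 2.99, 0.451 and 0.720 with shRNA2 and 132, 120.0 and 1.34 with shRNA3. Its high values are those of shRNA3 libraries 1 and 2, the libraries in which SLC2A3 was also highest, while library 3 was near NC. The fit gave log2 fold changes of 3.51, 1.19 and 7.11 (edgeR, adjusted p = 0.0308, 0.472 and 0.00108). The call with shRNA1 was lost when any NC library or shRNA1 library 1 or 2 was left out, and that with shRNA3 when library 3 stood alone for its group (log2 fold change 1.18). The sum of SLC2A3 and SLC2A14 was 0.606, 0.739 and 0.812 CPM in NC, 163, 169 and 150.0 with shRNA1, 77.6, 104 and 107 with shRNA2 and 758, 700.4 and 115 with shRNA3. Counted this way, the pair was 224-fold (95% interval 166 to 309), 134-fold (95% interval 99.4 to 186) and 651-fold (95% interval 483 to 899.5) higher, a value that does not depend on how reads were divided between the genes. SLC2A6, a carrier of lysosomal membranes, was at 18.3 to 24.9 CPM in NC and 6.67 to 27.9 with the shRNAs and was not called with any.

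**Figure D2:**
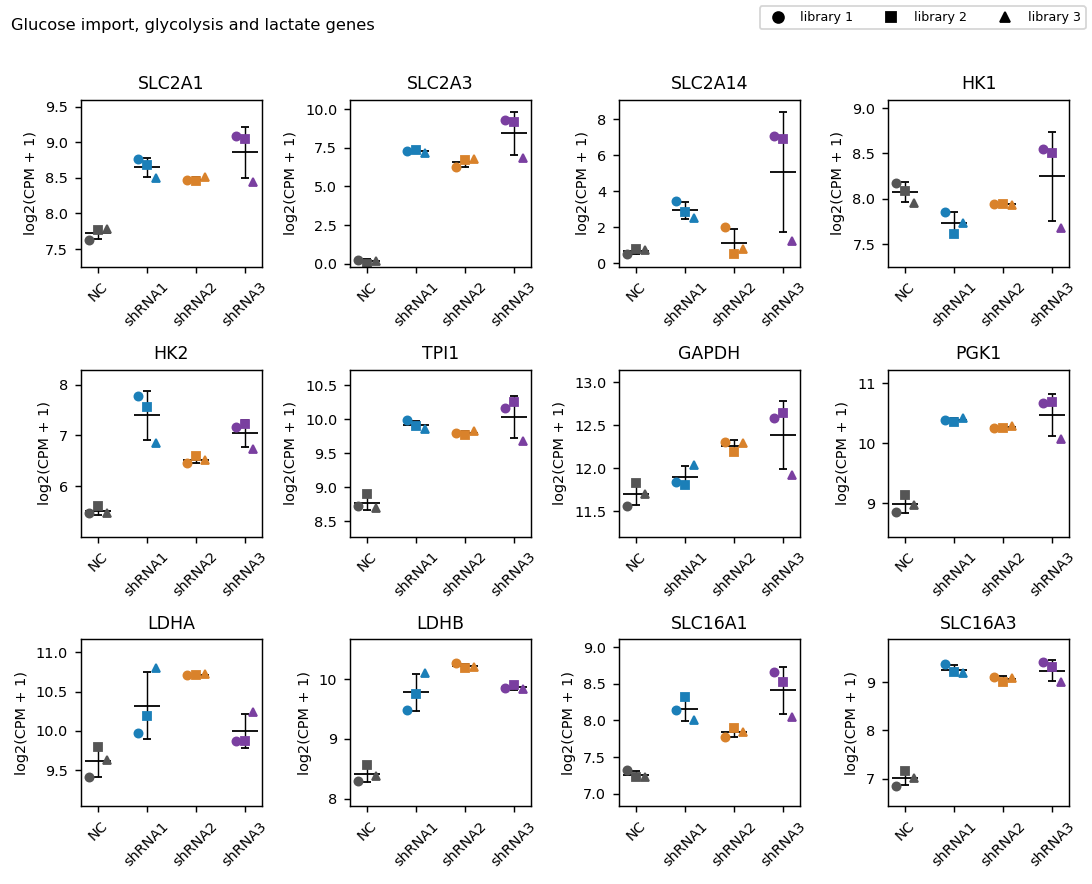
Log2(CPM + 1) (vertical axes) of 12 genes of glucose import, glycolysis and lactate handling in each of the 12 libraries, with the mean and SD of each group of 3. SLC2A1, SLC2A3, HK2, TPI1, PGK1, LDHA, LDHB, SLC16A1 and SLC16A3 lie above NC in all 9 shRNA libraries, and shRNA3 library 3 (triangle) sits apart from libraries 1 and 2 in most panels.

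In upper glycolysis, HK2, GPI and TPI1 rose with every hairpin, and the other 7 genes did not change in the same direction with all 3. HK2, the inducible hexokinase (ENSG00000159399, chromosome 2, 74833981 to 74893359, plus strand), for which the stretch before 1 of 2 listed starts is shown above, was read at 43.1, 47.9 and 43.0 CPM in NC, 218, 187 and 115 with shRNA1, 86.5, 96.0 and 90.7 with shRNA2 and 143, 149 and 106 with shRNA3. All shRNA libraries lay above all NC libraries, shRNA1 and shRNA3 overlapped each other, and the highest values are those of shRNA1 libraries 1 and 2. HK2 rose by 1.96 (SE 0.22), 1.03 (SE 0.21) and 1.57 (SE 0.22) on the log2 scale (edgeR, adjusted p = 2.3e-05, 0.00185 and 0.000115), and the difference between shRNA1 and shRNA2 passed as well (0.93, adjusted p = 0.0187). HK1, the constitutive hexokinase, was at 248 to 288 CPM in NC and 194 to 375 with the shRNAs, with log2 fold changes of -0.34, -0.14 and 0.22, none of them called. Without shRNA3 library 3, HK1 was called higher there (0.45), and under upper-quartile scaling lower with shRNA1 (-0.52). GPI, which turns glucose 6-phosphate into fructose 6-phosphate, went from 311 ± 22.0 CPM (SD, n = 3) in NC to 487 ± 29.7, 775 ± 18.6 and 862 ± 97.4. It was 1.57-, 2.49- and 2.77-fold higher, and less so with shRNA1 than with shRNA2 (log2 difference -0.67, adjusted p = 0.01) or shRNA3 (-0.82, adjusted p = 0.00374).

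TPI1, the triose phosphate isomerase (ENSG00000111669, chromosome 12, 6867119 to 6870948, plus strand), was read at 422, 478 and 413 CPM in NC, 1012, 952 and 926 with shRNA1, 892, 869 and 907 with shRNA2 and 1151, 1217 and 816 with shRNA3. It was 2.21-fold higher over the mean of the hairpins, and no difference between hairpins was called. Per hairpin the log2 fold changes were 1.14 (SE 0.16), 1.02 (SE 0.16) and 1.28 (SE 0.16) (edgeR, adjusted p = 0.000119, 0.000267 and 5.71e-05).

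The 3 phosphofructokinase genes, whose enzyme commits sugar to glycolysis, differed in which hairpin they were called with. PFKL (ENSG00000141959, chromosome 21, 44300051 to 44327376, plus strand) was read at 132, 152 and 121 CPM in NC, 94.2, 90.9 and 102 with shRNA1, 183, 175 and 186 with shRNA2 and 245, 265 and 153 with shRNA3. With shRNA1 all libraries lay below NC, with shRNA2 and shRNA3 all lay above it, and PFKL was the only gene of the 40 called in opposite directions (2.5%, background 0.502%). Between shRNA1 and shRNA3 it differed by -1.21 on the log2 scale (edgeR, adjusted p = 0.00346), which was not called in a fit of only the libraries compared. Against NC its log2 values were -0.50 (SE 0.19), 0.43 (SE 0.18) and 0.71 (SE 0.19) (edgeR, adjusted p = 0.0383, 0.0721 and 0.00685). Neither call held in all fits: that with shRNA1 was lost when any NC or shRNA1 library except NC library 3 was left out (log2 fold changes -0.40 to -0.54), and that with shRNA3 when library 3 stood alone for its group (0.21). PFKM had log2 fold changes of -0.18, 0.42 and 0.76, called with shRNA3, and 0.10 there when library 3 stood alone. PFKP had 0.53, 0.53 and 0.00, called with shRNA1 and shRNA2, and both calls were lost on leaving out any library of either group compared.

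PFKFB3, which makes the activator of phosphofructokinase, fell with shRNA2, from 52.6 ± 1.54 to 28.8 ± 2.64 CPM (log2 fold change -0.87, edgeR, adjusted p = 0.00264), and it was also lower than with shRNA1 (log2 difference of shRNA1 from shRNA2 1.08, edgeR, adjusted p = 0.00695) and with shRNA3 (shRNA2 from shRNA3 -0.72, adjusted p = 0.0461). ALDOA, the main aldolase, fell with shRNA1, from 2429 ± 372 to 1367 ± 51.5 CPM (-0.83, edgeR, adjusted p = 0.00731), and differed there from shRNA3 (-1.18, adjusted p = 0.00627) but without a call from shRNA2 (-0.65, adjusted p = 0.0784). ALDOC, a minor aldolase whose library values were chosen for printing after they were seen, was at 129, 132 and 140.3 CPM in NC, 80.9, 70.4 and 27.0 with shRNA1, 19.6, 20.5 and 27.4 with shRNA2 and 203, 209 and 52.2 with shRNA3. It fell with shRNA2 (-2.57, adjusted p = 0.00111), and shRNA3 held libraries both above and below NC (log2 fold change 0.21). With shRNA1 it lay below NC in all libraries without a call (-1.17, adjusted p = 0.0525).

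In lower glycolysis, PGK1, PGAM1 and PKM rose with every hairpin. PGK1, the phosphoglycerate kinase that yields the first ATP (ENSG00000102144, chromosome X, 77910739 to 78129296, plus strand), was read at 463, 561 and 499 CPM in NC, 1346, 1306 and 1364 with shRNA1, 1215, 1224 and 1257 with shRNA2 and 1631, 1652 and 1073 with shRNA3. All shRNA libraries lay above all NC libraries, shRNA3 library 3 the nearest to them. PGK1 rose by 1.40 (SE 0.17), 1.28 (SE 0.17) and 1.52 (SE 0.18) on the log2 scale (edgeR, adjusted p = 4.81e-05, 9.5e-05 and 2.98e-05). PGAM1, the phosphoglycerate mutase, went from 460.1 ± 40.9 CPM to 716 ± 59.4, 813 ± 12.2 and 681 ± 5.10, and its call with shRNA3 was lost under library totals alone (log2 fold change 0.23 against 0.57). PKM, the pyruvate kinase of the last step, went from 1568 ± 141 CPM to 2691 ± 145, 3158 ± 81.0 and 3557 ± 780.4, or 1.72-, 2.01- and 2.27-fold higher (adjusted p = 0.00299, 0.000597 and 0.000214).

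GAPDH (ENSG00000111640, chromosome 12, 6533927 to 6538374, plus strand), often used as a reference gene, was read at 3033, 3635 and 3336 CPM in NC, 3653, 3593 and 4215 with shRNA1, 5057, 4684 and 5038 with shRNA2 and 6159.5, 6420.4 and 3890.1 with shRNA3. The shRNA1 libraries overlapped NC, those of shRNA2 and shRNA3 did not, and shRNA3 libraries 1 and 2 were the highest. Against NC the log2 fold changes of GAPDH were 0.20 (SE 0.20), 0.56 (SE 0.20) and 0.72 (SE 0.20) (edgeR, adjusted p = 0.418, 0.0316 and 0.00943). The call with shRNA2 was lost under upper-quartile scaling (0.46) and without NC library 1 or 3 or any shRNA2 library, and that with shRNA3 when library 3 stood alone for its group (0.25). ENO1, the main enolase, rose with shRNA2, from 1813 ± 201 to 2974 ± 89.8 CPM (0.71, adjusted p = 0.0137), a call lost without NC library 1 (0.64). Its values with shRNA1 and shRNA3 were 0.14 and 0.50 without a call, and no difference between hairpins was called. ENO2, the neuronal enolase, had log2 fold changes of -1.21, -0.76 and 0.31, lower with shRNA1 and shRNA2. Its call with shRNA2 was lost on leaving out any NC or shRNA2 library (-0.64 to -0.82). GAPDH, PGK1, PGAM1, TPI1, ENO1, LDHA, LDHB and PKM have pseudogene copies, and how reads that fit several copies were counted is not given in the sources used here.

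Among the genes of lactate and pyruvate handling, LDHB, SLC16A1 and SLC16A3 rose and PDK3 fell with every hairpin. SLC16A3 (MCT4, which exports lactate; ENSG00000141526, chromosome 17, 82228397 to 82261129, plus strand) was read at 115, 141 and 128 CPM in NC, 665, 594 and 581 with shRNA1, 550.2, 511 and 543 with shRNA2 and 683, 632 and 510.1 with shRNA3. The groups are far apart, and the 9 shRNA libraries form a narrow band whose lowest member, shRNA3 library 3, is several-fold above the highest NC library. The rises of 2.26 (SE 0.15), 2.06 (SE 0.15) and 2.25 (SE 0.15) on the log2 scale (edgeR, adjusted p = 6.18e-07, 1.08e-06 and 6.7e-07) differed little between hairpins: shRNA1 differed from shRNA2 by 0.20 (SE 0.14) and from shRNA3 by 0.01 (SE 0.14), and shRNA2 from shRNA3 by -0.19 (SE 0.14), none of them called. SLC16A1 (MCT1, a carrier in both directions) went from 152 ± 5.78 CPM to 286 ± 32.5, 228 ± 10.3 and 345 ± 72.4, or 1.88-, 1.50- and 2.27-fold higher. Genes annotated on the opposite strand overlap SLC16A3 (CSNK1D), TPI1 (SPSB2), HK2, SLC2A1, LDHB and SLC16A1, and PGK1 overlaps PGAM4 there and ATP7A on its own strand. Whether the authors' counting told strands apart is not given in the sources used here, so reads of such partners may be mixed.

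LDHB, the lactate dehydrogenase subunit of heart type (ENSG00000111716, chromosome 12, 21635342 to 21757857, minus strand), was read at 313, 377 and 332 CPM in NC, 717, 862 and 1096 with shRNA1, 1227, 1164 and 1179.7 with shRNA2 and 924, 956 and 909 with shRNA3. All shRNA libraries lay above NC, those of shRNA2 highest. LDHB rose by 1.39 (SE 0.16), 1.80 (SE 0.17) and 1.45 (SE 0.16) on the log2 scale (edgeR, adjusted p = 3.23e-05, 5.5e-06 and 2.62e-05). LDHA, the muscle-type subunit and a known HIF target, lay above NC in all 9 shRNA libraries (680.3 to 887 CPM in NC, 935 to 1774 with the shRNAs), with log2 fold changes of 0.74, 1.09 and 0.39. It was called with shRNA1 and shRNA2 and not with shRNA3 (adjusted p = 0.144), and the call with shRNA1 was lost without NC library 1 (0.65). The kinases of pyruvate dehydrogenase among the 40 genes, PDK1 and PDK3, were lower where called. PDK4, a further kinase outside the 40 that is given below, was called higher with every hairpin. PDK3 fell from 55.7 ± 3.81 CPM to 16.3 ± 2.23, 33.4 ± 2.28 and 27.9 ± 3.56, or 3.41-, 1.67- and 1.996-fold lower (edgeR, adjusted p = 4.49e-06, 0.00188 and 0.000261), and shRNA1 was below shRNA2 (log2 difference -1.03, adjusted p = 0.00356). PDK1 had log2 fold changes of -0.16, -0.49 and -0.61, called with shRNA2 and shRNA3, and the call with shRNA2 was lost without NC library 3 or shRNA2 library 1 or 2 (-0.42 to -0.46).

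Within a family, levels were compared per length, as CPM per kb of the annotated principal transcript. In NC, HK1 stood at 74.6 ± 5.62 and HK2 at 7.74 ± 0.485 CPM per kb (SD, n = 3). The share of HK2 in the 2 hexokinases was 9.43% ± 0.770 in NC and 33.3% ± 7.01, 18.9% ± 0.801 and 21.3% ± 2.69 with shRNA1, shRNA2 and shRNA3, so HK1 was the more abundant per length in each group. SLC2A3 made up 0.0470% ± 0.0430 of the 4 glucose transporters in NC and 24.7% ± 1.16, 18.8% ± 2.87 and 37.4% ± 13.6 with the hairpins, and SLC2A1 correspondingly less. The share of LDHB in the lactate dehydrogenases was 37.0% ± 1.19 in NC and 48.2% ± 2.33, 48.9% ± 0.700 and 55.2% ± 4.19. SLC16A3 made up 62.7% ± 3.24 of SLC16A1 and SLC16A3 together in NC and 81.2% ± 2.01, 82.5% ± 1.20 and 78.1% ± 1.21. These shares depend on which length is used: over the union of all exons, an alternative chosen after seeing the data, SLC16A3 had 33.2% ± 3.04 in NC and 55.9% ± 3.19, 58.1% ± 2.01 and 51.2% ± 1.78, and LDHB 47.5% ± 1.27 in NC and 58.9% ± 2.27, 59.6% ± 0.673 and 65.4% ± 3.87. With either length all 4 shares were higher in each shRNA group than in NC. No test was run on the shares.

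**Figure D3:**
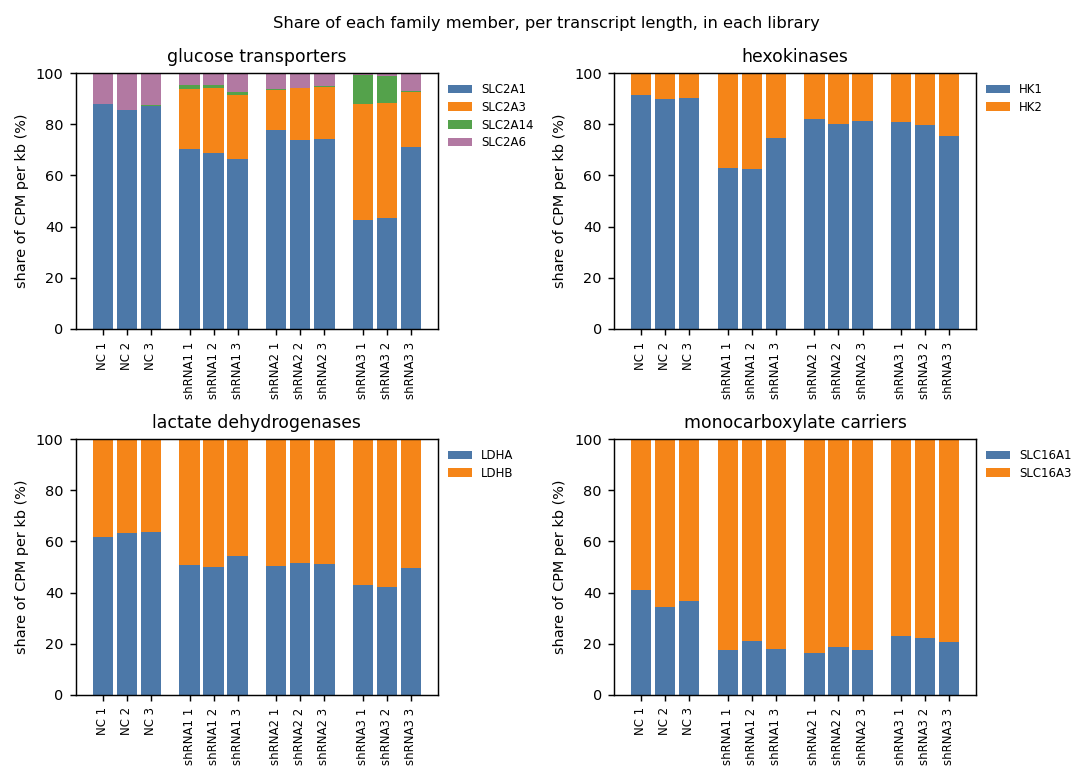
Share of each gene in the summed CPM per kb (vertical axes, %) of its family in each of the 12 libraries, for glucose transporters, hexokinases, lactate dehydrogenases and the lactate carriers SLC16A1 and SLC16A3. The orange segments (SLC2A3, HK2, LDHB and SLC16A3) are taller in all 9 shRNA libraries than in the 3 NC libraries.

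The mRNAs of HIF1A and EPAS1 were not called higher with any hairpin. HIF1A (ENSG00000100644, chromosome 14, 61695513 to 61748259, plus strand) was read at 378, 358 and 412 CPM in NC, 210.3, 245 and 338 with shRNA1, 199.9, 222 and 198 with shRNA2 and 374, 343 and 176 with shRNA3. The shRNA1 and shRNA2 libraries all lay below NC, and shRNA3 libraries 1 and 2 lay within or next to the NC range. Log2 fold changes of HIF1A were -0.53 (SE 0.25), -0.89 (SE 0.26) and -0.36 (SE 0.25), called lower with shRNA2 (edgeR, adjusted p = 0.093, 0.0123 and 0.25), and that call was lost without shRNA2 library 3 (-0.83). For the mean of the hairpins HIF1A was also called lower. With shRNA1 it was called lower under upper-quartile scaling (-0.71), under library totals alone (-0.62) and without library 3 (-0.74), and with shRNA3 under library totals alone (-0.76) and when library 3 stood alone (-1.09). EPAS1 (HIF-2 alpha; ENSG00000116016, chromosome 2, 46293667 to 46386703, plus strand) was read at 205, 164 and 171 CPM in NC, 221, 191 and 173 with shRNA1, 166, 179 and 163 with shRNA2 and 265, 246 and 143 with shRNA3. All groups overlapped, and none of the log2 values, 0.12 (SE 0.21), -0.09 (SE 0.21) and 0.28 (SE 0.21), was called, though without library 3 it was called higher with shRNA3 (0.50). EGLN1, the main prolyl hydroxylase that marks HIF-alpha for degradation, was at 33.4 to 42.1 CPM in NC and 24.1 to 75.3 with the shRNAs, called higher with shRNA1 (0.88), and that call was lost on leaving out any NC or shRNA1 library. EGLN3, a prolyl hydroxylase that HIF itself induces, was not called with any hairpin (1.02, 0.14 and -0.63). HIF1A and EGLN3 overlap antisense genes.

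Of the 10 HIF targets outside glycolysis, 2 rose and 4 fell with shRNA1, 2 rose and 5 fell with shRNA2, and 4 rose and 4 fell with shRNA3. Among all tested genes 26.8%, 24.6% and 26.4% were called higher and 30.6%, 28.4% and 27.6% lower. With only 10 genes the split is a description. ANKRD37, a small ankyrin-repeat gene strongly induced by HIF (ENSG00000186352, chromosome 4, 185396021 to 185400628, plus strand), rose with every hairpin and was read at 1.11, 0.985 and 0.558 CPM in NC, 6.37, 7.94 and 3.92 with shRNA1, 2.22, 3.27 and 2.49 with shRNA2 and 3.56, 5.90 and 3.53 with shRNA3. All shRNA libraries lay above all NC libraries, on few counts. By summed counts it was 6.91-fold (95% interval 5.17 to 9.40), 3.01-fold (95% interval 2.18 to 4.21) and 4.77-fold (95% interval 3.51 to 6.58) higher (edgeR, adjusted p = 0.000115, 0.00472 and 0.000474). It overlaps UFSP2 on the opposite strand.

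CA12, a membrane carbonic anhydrase (ENSG00000074410, chromosome 15, 63321378 to 63382161, minus strand), fell with every hairpin and was read at 2.83, 2.02 and 2.49 CPM in NC, 0, 0.0969 and 0 with shRNA1, 0.117, 0 and 0.0554 with shRNA2 and 0.148, 0 and 0.447 with shRNA3. The shRNA libraries held 0, 2 and 0 counts with shRNA1, 2, 0 and 1 with shRNA2 and 2, 0 and 9 with shRNA3, against 56, 41 and 49 in NC. By summed counts it was 73.4-fold (95% interval 19.9 to 611), 43.0-fold (95% interval 14.4 to 211) and 10.5-fold (95% interval 5.70 to 21.5) lower (edgeR, adjusted p = 0.000441, 0.000766 and 0.00395). Its relative CA9, a classic HIF target, went up where it was called: it was at 8.58, 13.9 and 15.4 CPM in NC, 20.9, 20.2 and 11.0 with shRNA1, 30.4, 35.0 and 42.3 with shRNA2 and 52.9, 50.8 and 11.7 with shRNA3. The calls were those with shRNA2 and shRNA3 (log2 fold changes 1.50 and 1.60, adjusted p = 0.0197 and 0.0143). Both were lost without NC library 1 (1.29 and 1.38), which has the lowest NC value, that with shRNA2 also without its library 3 (1.40), and shRNA3 library 3 lay within the NC range.

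NDRG1, a stress-induced gene and known HIF target, and ADM, which encodes the vasodilator peptide adrenomedullin, varied widely between libraries of a group. NDRG1 was at 147, 147 and 151 CPM in NC, 733, 746 and 389 with shRNA1, 264, 320.0 and 374 with shRNA2 and 1672, 1721 and 347 with shRNA3. All shRNA libraries exceeded NC, and it was called with shRNA1 and shRNA3 (log2 fold changes 2.07 and 3.07) and not with shRNA2 (1.11, edgeR, adjusted p = 0.0654). ADM was at 23.1, 25.9 and 31.8 CPM in NC, 77.7, 75.3 and 37.7 with shRNA1, 23.6, 24.4 and 25.6 with shRNA2 and 191, 232 and 33.4 with shRNA3. It was called with shRNA3 (2.50, edgeR, adjusted p = 0.00245), and with library 3 alone for that group the value was 0.34 and not called. The values of CA9, NDRG1, ADM, EGLN3 and BNIP3L in single libraries were chosen for printing after they were seen.

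The mitophagy receptors and the collagen prolyl hydroxylases, also known HIF targets, were lower where called. BNIP3L was at 124, 132 and 139 CPM in NC, 43.7, 49.3 and 40.5 with shRNA1, 33.3, 38.2 and 32.8 with shRNA2 and 84.5, 91.3 and 34.5 with shRNA3, giving log2 values of -1.56 (SE 0.28), -1.92 (SE 0.29) and -0.91 (SE 0.28) (edgeR, adjusted p = 0.000684, 0.000194 and 0.0167). Its call with shRNA3 was lost in a fit of the libraries compared alone (-0.83). BNIP3, whose promoter stretch held the most motif positions, went from 85.9 ± 7.95 CPM to 80.4 ± 9.01, 43.6 ± 2.70 and 62.4 ± 8.44, called lower with shRNA2 and shRNA3. The call with shRNA3 was lost without NC library 2 (-0.41) or shRNA3 library 1 (-0.43). P4HA2 went from 95.7 ± 2.72 CPM to 44.7 ± 2.72, 59.1 ± 1.69 and 60.8 ± 11.9, or 2.14-, 1.62- and 1.57-fold lower (adjusted p = 7.75e-05, 0.00182 and 0.0027). P4HA1 had log2 fold changes of -0.64, -1.17 and -0.29, called lower with shRNA1 and shRNA2. KDM3A, a histone demethylase induced by HIF, was not called with any hairpin (0.29, -0.14 and -0.14). Called with no hairpin were 5 of the 40 genes, SLC2A6, HK1, EPAS1, EGLN3 and KDM3A (12.5%, background 24.3%).

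**Figure D4:**
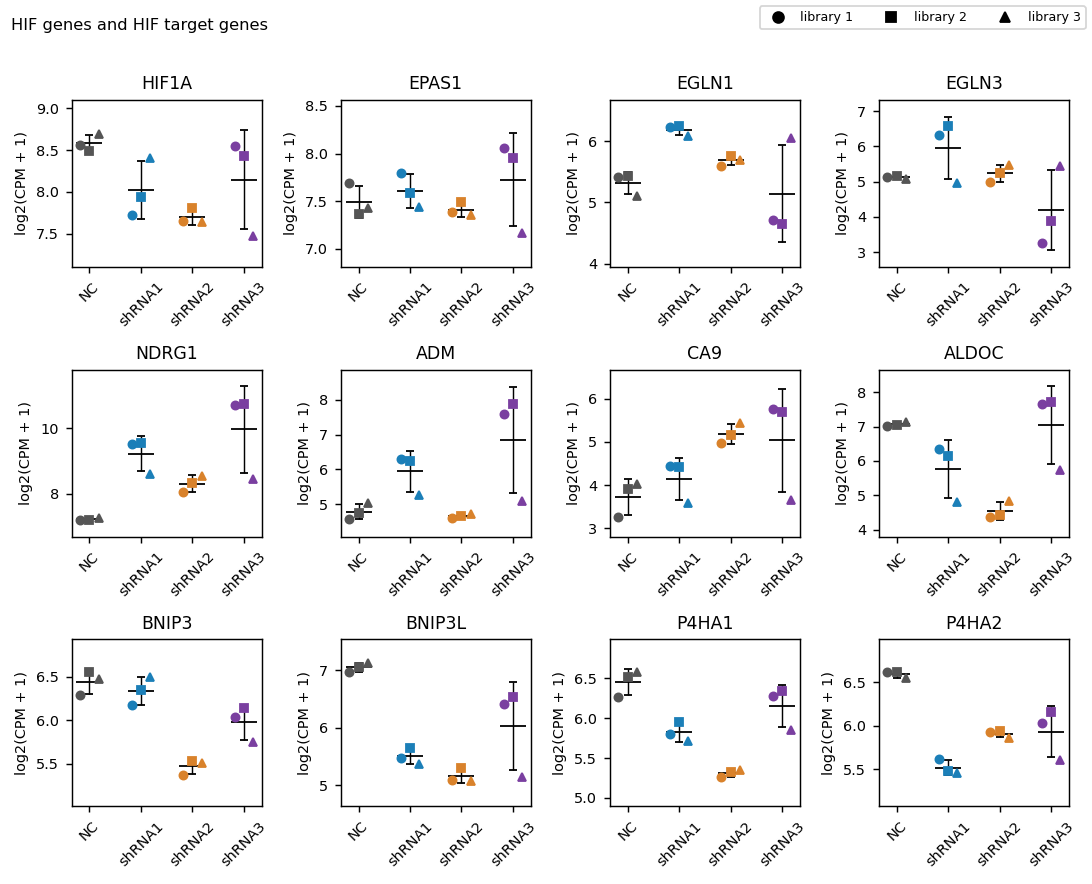
Log2(CPM + 1) (vertical axes) of HIF1A, EPAS1, 2 prolyl hydroxylase genes, ALDOC and 7 HIF targets outside glycolysis in each of the 12 libraries, with the mean and SD of each group of 3. shRNA3 library 3 (triangle) lies below libraries 1 and 2 for NDRG1, ADM, CA9, ALDOC and BNIP3L and above them for EGLN1 and EGLN3.

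Within shRNA3, library 3 was at least 2-fold below both other libraries for 8 of the 40 (20%, background 16.9%): SLC2A3, SLC2A14, ALDOC, ENO2, CA9, BNIP3L, NDRG1 and ADM. It was at least 2-fold above both for SLC2A6, EGLN1, EGLN3 and CA12 (10.0%, background 20.7%). Without library 3, 34 of the 40 genes were called with shRNA3, 24 higher and 10 lower, where 73.1% of all genes tested in that fit were called. HK1 (0.45), ALDOA (0.58), ENO1 (0.61), ENO2 (0.62) and EPAS1 (0.50) were then called higher, and SLC2A6 (-1.50), EGLN1 (-0.66), EGLN3 (-1.59) and PFKP (-0.34) lower. Library 3 of shRNA1 was at least 2-fold below both others for ALDOC and EGLN3 (5.0%, background 4.49%), and without it ADM (1.51), EGLN3 (1.38) and KDM3A (0.42) were called higher with shRNA1. For EGLN3 the values were 34.0, 34.5 and 32.6 CPM in NC, 79.7, 94.99 and 30.2 with shRNA1, 30.9, 37.0 and 43.3 with shRNA2 and 8.60, 13.8 and 42.6 with shRNA3, where library 3 of each of shRNA1 and shRNA3 was close to shRNA2. Of the 12 genes higher and 4 lower with every hairpin, 14 kept each of their 3 calls in the other fits run at the same threshold (46 for each gene over the 3 comparisons, 43 for CA12, which the filter at a mean of 50 counts removes), including each fit that left out a library and, with its spread taken from the other groups, the fit of library 3 alone for shRNA3. PGAM1 and BNIP3L each lost 1 call, in the fits named above. SLC2A3 and CA12 are among the 14, and as both had to differ between groups to be tested, their kept calls add no support.

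Between hairpins, 7 genes differed for shRNA1 against shRNA2 (17.5%, background 12.3%), 4 higher (10.0%, background 5.78%) and 3 lower (7.5%, background 6.53%) with shRNA1: HK2, PFKFB3, BNIP3 and P4HA1 were higher, and GPI, PFKL and PDK3 lower. For shRNA1 against shRNA3, 14 differed (35.0%, background 30.0%), 4 higher (10.0%, background 11.9%) and 10 lower (25%, background 18.1%) with shRNA1. PDK1, EGLN1, EGLN3 and KDM3A were the higher ones. None of the 14 was called in a fit of only the libraries compared. For shRNA2 against shRNA3, 11 differed (27.5%, background 8.34%), 0 higher (background 1.91%) and 11 lower (background 6.43%) with shRNA2. Among those 11 were SLC2A3 (log2 difference -2.22), NDRG1 (-1.96), ADM (-2.63) and BNIP3L (-1.01), 4 of the genes for which shRNA3 library 3 stood apart. With library 3 alone for shRNA3, a fit that assumes the lone library varies like the other groups, 0 of the 40 genes differed from shRNA2 by edgeR's test (9 at an unadjusted p under 0.05; 1.28% of all tested genes were called). Without library 3, 32 did, and 59.2% of all tested genes. Leaving out any shRNA2 library or shRNA3 library 1 or 2 also gave 0. For shRNA1 against shRNA3, 5 differed with library 3 alone (8.10% of all tested genes) and 32 without library 3 (63.4%).

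Other genes of these pathways, listed by name, were read the same way, and the share of all tested genes called with every hairpin, given above as 16.0% higher and 19.7% lower, is their background too. Of 21 further glycolysis enzymes, 13 were tested, and 3 were called higher (23.1%) and 1 lower (7.69%) with every hairpin. HKDC1, a further hexokinase family member, was at 0.542 to 0.710 CPM in NC against 7.73 to 26.3 CPM over the 9 shRNA libraries, with log2 fold changes of 5.15, 4.68 and 3.95. PFKFB4, a relative of PFKFB3 that sets the level of the phosphofructokinase activator, was at 0.757 to 1.58 CPM in NC against 8.16 to 21.2 CPM over the 9 shRNA libraries, with 4.08, 3.74 and 3.25. Both rose from a low level in NC.

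Of 15 further glucose and monocarboxylate carriers, 10 were tested, and 3 were called higher (30.0%) and 4 lower (40%) with every hairpin. SLC16A5, a monocarboxylate carrier relative, rose with every hairpin (9.14 to 9.44 CPM in NC against 41.5 to 99.7 CPM over the 9 shRNA libraries; log2 fold changes 2.20, 2.69 and 3.23), SLC2A8, an intracellular glucose carrier, rose by 0.56, 1.20 and 1.14, and SLC2A13, the myo-inositol carrier, had -0.95, -0.79 and -0.99. The other carriers called with every hairpin, named after their values were seen, were SLC2A9, higher (1.96, 2.31 and 2.58), and SLC2A12, SLC2A4 and SLC2A11, lower. SLC2A12 was at 17.2 to 21.2 CPM in NC against 0 to 0.395 CPM over the 9 shRNA libraries. It passed the filter on low counts through its NC libraries alone. SLC2A4 had -5.06, -3.45 and -1.59, and SLC2A11 -3.42, -2.31 and -1.96. Among 11 genes of pyruvate dehydrogenase and pyruvate import, 3 were called higher (27.3%) and 2 lower (18.2%) with every hairpin. Subunits of the same complex changed in both directions: PDHX, its E3-binding component, was at 206 to 224 CPM in NC against 35.2 to 56.0 CPM over the 9 shRNA libraries (log2 fold changes -2.10, -2.51 and -2.58), and DLAT, its E2 core, at 27.2 to 30.0 CPM in NC against 57.0 to 117 CPM over the 9 shRNA libraries (1.98, 1.56 and 1.34). PDP1, the phosphatase that activates the complex and opposes PDK3, was lower with every hairpin too (-1.89, -2.99 and -1.79). The other higher ones, named after their values were seen, were PDHA1 (0.31, 0.39 and 0.55) and the kinase PDK4. PDK4 was at 0 CPM in NC against 0.568 to 3.21 CPM over the 9 shRNA libraries. It passed the filter on low counts through its shRNA libraries alone, so it had to differ between groups to be tested.

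In the pentose phosphate pathway, 1 of 7 genes was called higher and 0 lower with every hairpin. That gene was RPIA, the ribose 5-phosphate isomerase (1.51, 0.88 and 0.997). Of 10 other HIF pathway factors, 5 were called higher (50%) and 0 lower with every hairpin, among them ARNT2, a partner of HIF-alpha (1.72 to 3.00 CPM in NC against 20.4 to 42.1 CPM over the 9 shRNA libraries; 3.81, 3.19 and 3.24), LIMD1, a scaffold of HIF-alpha degradation (1.46, 1.50 and 1.83), and the coactivator CREBBP (1.34, 1.15 and 0.87). Of 26 other hypoxia-response genes, 5 were called higher (19.2%) and 5 lower (19.2%) with every hairpin, shares near those of all tested genes. ANGPTL4, a lipase inhibitor, was at 0.660 to 1.62 CPM in NC against 7.08 to 52.8 CPM over the 9 shRNA libraries (4.28, 2.89 and 4.99), BHLHE40, a transcriptional repressor, rose by 3.30, 2.09 and 4.39, and DDIT4, an inhibitor of mTOR signalling, by 1.61, 1.88 and 2.72. The other higher ones were FAM162A and FUT11, and the 5 lower ones, named after their values were seen, were INSIG2 (-1.56, -1.60 and -1.14), KDM4C (-1.14, -1.30 and -0.89), PLOD2, a collagen lysyl hydroxylase (-1.11, -1.76 and -1.74), VLDLR (10.1 to 11.97 CPM in NC and 0 to 0.199 over the 9 shRNA libraries) and PPP1R3C, a glycogen-targeting subunit (3.60 to 4.26 CPM in NC and 0 to 0.277 over the 9 shRNA libraries). All adjusted p-values of the genes named from these lists were below 0.05 for each hairpin (edgeR). VLDLR and PPP1R3C passed the filter on low counts through their NC libraries alone. HIF3A, among the 5 HIF pathway factors called higher, passed it through shRNA libraries alone (0 CPM in NC and 0.361 to 1.84 over the 9 shRNA libraries). Such genes had to differ between groups to be tested at all, and the shares called in these lists include them.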

How the data were processed

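The authors deposited 1 table of estimated counts per gene, not scaled, with 12 columns matched to the sample titles. Per the submitters' processing notes, HISAT2, HTSeq 0.11.2 and GRCh38 were used; 13.8% of the deposited values are not whole, and the step that made them, the annotation and the use of strand are not given in the sources used here. The 40 genes and the lists were chosen with earlier results of these data known. Library values were printed for genes called the same way with a log2 change of at least 1 for every hairpin, or called in opposite directions, and for HIF1A, EPAS1, GAPDH, SLC2A1 and SLC2A14, and for at most 3 genes of each other list. Further genes of the other lists were named after their values were seen.

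Estimated counts were rounded. Genes were filtered (minimum count 10, minimum total 15) and tested two-sided with edgeR 4.0.16 (R 4.3.3) in 1 model of 4 groups, TMM-scaled, with Benjamini-Hochberg adjustment over 17532 genes. On simulated counts with the same 17532 genes and shRNA1 against NC, 86% of 100 2-fold and 98% of 100 4-fold changes were recovered, and 11 unchanged genes were called. The simulation took its spread from the libraries other than shRNA3 and changed only genes with a mean above 50 counts. It also changed far fewer genes than are called in the data. Its rates therefore do not carry over to genes with few counts or to the spread within shRNA3. Ratios of summed counts have exact 95% intervals. Positions and overlaps are from GENCODE release 29. Alternatives were other scalings, filters, thresholds, DESeq2 1.42.0, thinning, a replicate block, only the libraries compared, and each library left out.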

Additional observations from a re-analysis of the deposited data

Results flagged for a closer look

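PFKL differed between hairpins by a test of the difference itself: shRNA1 against shRNA3 gave a log2 difference of -1.21 (SE 0.19; edgeR, adjusted p = 0.00346), with 94.2, 90.9 and 102 CPM in the shRNA1 libraries, 245, 265 and 153 in the shRNA3 libraries and 132, 152 and 121 in NC. In a fit of only the libraries compared this difference was not called. All shRNA1 libraries lay below NC and all shRNA3 libraries above it, shRNA3 library 3 by the least.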

How the results depend on the processing

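The counts in this section are of called genes, and the share of all tested genes called changes with the threshold and the fit as well. A change in these counts is therefore not particular to the 40 genes or the lists. With a log2 minimum of 1 there were 14 genes with shRNA1, 15 with shRNA2, 16 with shRNA3 and 16 with their mean, 2, 7 and 7 for shRNA1 against shRNA2, shRNA1 against shRNA3 and shRNA2 against shRNA3, and 9 hypoxia-response, 1 pentose phosphate and 4 pyruvate dehydrogenase genes. An adjusted p under 0.01 left 3, 6 and 0 for the 3 pairs of hairpins (17 at an unadjusted p under 0.05 for the last). shRNA1 against shRNA2 gave 14 by the DESeq2 Wald test and 27 with only the libraries compared. shRNA1 against shRNA3 gave 6 without a low-count filter, 0 with only the libraries compared (edgeR; 9 at an unadjusted p under 0.05), 7 with a replicate block and 5 with shRNA3 library 3 alone. shRNA2 against shRNA3 gave 5 by library totals, 4 without a filter, 0 with only the libraries compared (edgeR; 13 unadjusted), 2 with a replicate block and 0 with library 3 alone (edgeR; 9 unadjusted), where the other groups supply the spread. The other glycolysis enzymes called for the mean, 8 in the report's fit, were 13 without a filter, 4 at a mean of at least 50 counts and 13 with library 3 alone; the cause of these differences was not tested.

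Leaving out a library gave 20 to 26 genes for shRNA1, 23 to 26 for shRNA2, 24 to 34 for shRNA3, 22 to 33 for the mean, 3 to 13 for shRNA1 against shRNA2, 6 to 32 for shRNA1 against shRNA3 and 0 to 32 for shRNA2 against shRNA3. The share of all tested genes called moved as well, as given above for the fits without shRNA3 library 3. With library 3 alone for shRNA3, its change against NC reversed for HK1 (-0.37), ALDOC (-1.33), ENO2 (-0.59), EGLN1 (0.77) and CA9 (-0.082), while PFKP was called higher there (0.53). Leaving out a shRNA3 library gave PFKP values from -0.34 (without library 3, called lower) to 0.23 (without library 1), against 0.0011 with all libraries. Libraries that share a number showed no shared deviation from their group means (mean correlation -0.00856, range -0.0868 to 0.0777 over 18 pairs), and with the replicate block 25 genes were called with shRNA1, 27 with shRNA2, 25 with shRNA3 and 27 with their mean; against NC it changed the calls of GAPDH with shRNA2 (0.57), PFKL with shRNA1 (-0.48) and ALDOC with shRNA1 (-1.30). The median of all genes shifted to -0.10, -0.18 and -0.35 under library totals and -0.19, -0.15 and -0.14 under upper-quartile scaling, where the mean over hairpins gave 17 higher and 13 lower, and 16 and 11, against 19 and 9. Over all settings, 1908 of 2099 values were counted as the same. Called genes had to keep their direction and call, while genes without a call in either fit counted as the same whatever their sign. The 2099 also hold family shares by exon-union length, of which 13 moved and 3 did not, and values for the sum of SLC2A3 and SLC2A14. Below 3 counts (0.145 to 0.222 CPM) no level is resolved, which touches SLC2A3 in NC and CA12 with the hairpins.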
